A study of Mus musculus with 6 samples.

Results

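Cadherins and non-clustered protocadherins are cell adhesion proteins, and 177 of the 34673 H3K9me3 peaks listed as specific to wild type (WT) Bergmann glia (BG) were assigned to their genes. Members are the peaks whose nearest transcription start site (TSS), as the authors annotated it, belongs to a gene with a symbol made of Cdh or Pcdh and a number. They fell at 29 genes, and the clustered protocadherins, whose symbols carry letters, were not among them. The series holds ChIP-seq libraries of BG sorted from C57BL/6 cerebella at postnatal day 10. There were 2 libraries of Setdb1 mutant (MT) cells, 2 of WT cells and 2 control libraries, whose labels name both input and IgG. In the MT mice, floxed Setdb1 was deleted by mGFAP-Cre, a driver that is not limited to BG, and a Nes-GFP reporter served for sorting. All results below rest on 1 deposited list of peaks found in WT and not in MT cells. The heading of the list joins the abbreviations CT and InputMT, which are not explained, so it is unclear against which libraries the peaks and their scores were set. The list merges the libraries and gives no value per library, so neither replicate error nor depth per sample can be had from it, and no value below is a test of MT against WT cells. The labelled cell type could not be checked, since the list holds no expression values. The intervals given are 95% intervals that cover counting error only, and neighbouring peaks are not independent.

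H3K9me3 is a histone mark of silenced chromatin, and Setdb1 is one of the methyltransferases that place it, best known for keeping endogenous retroviruses and other transposable elements silent. BG are the radial glia-like astrocytes of the cerebellar cortex whose fibres guide migrating granule cells. Classical cadherins bind the same or a similar cadherin on the neighbouring cell in a calcium-dependent way and hold on to the actin skeleton through catenins. Type I members such as Cdh2 (N-cadherin) give strong adhesion, type II members are expressed in restricted patterns that divide the brain into regions and cell groups, and the delta protocadherins act in axon growth and the sorting of neurons. Many of these genes lie beside long stretches of sequence without other genes.

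The sequences below were read from the RefSeq assembly GRCm38.p6 (the build of mm10) on the forward strand, 5' to 3'. Outside repeats means here that the annotation names no repeat at the peak centre, and the bases around it were not checked for repeats. Shown are the central 300 bases of 3 member peaks outside repeats. They are the peak with the highest score (Cdh23, chr10:60629497-60629796), the peak of a Cdh gene closest to its TSS (Cdh1, E-cadherin of epithelia, intron 2 of 15, 3.89 kb downstream, chr8:106607087-106607386) and, chosen after its values were seen, the one with the highest score of those that hold the core letters of a nuclear factor I (NFI) site within the 300 bases (Cdh13, intron 2 of 13, score 9.63, chr8:118670207-118670506). Capitals mark the NFI core, TTGGCA or its reverse complement TGCCAA, on either strand.
Cdh23: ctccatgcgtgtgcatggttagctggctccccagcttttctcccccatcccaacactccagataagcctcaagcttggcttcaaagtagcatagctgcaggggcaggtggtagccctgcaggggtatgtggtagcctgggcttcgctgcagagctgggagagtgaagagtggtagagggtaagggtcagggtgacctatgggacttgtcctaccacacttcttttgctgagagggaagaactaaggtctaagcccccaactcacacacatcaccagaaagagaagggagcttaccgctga
Cdh1: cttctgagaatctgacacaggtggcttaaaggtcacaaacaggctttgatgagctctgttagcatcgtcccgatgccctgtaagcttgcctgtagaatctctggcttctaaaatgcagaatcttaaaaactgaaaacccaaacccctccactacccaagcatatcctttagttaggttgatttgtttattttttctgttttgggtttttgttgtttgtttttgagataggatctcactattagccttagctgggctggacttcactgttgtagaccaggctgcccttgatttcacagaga
Cdh13: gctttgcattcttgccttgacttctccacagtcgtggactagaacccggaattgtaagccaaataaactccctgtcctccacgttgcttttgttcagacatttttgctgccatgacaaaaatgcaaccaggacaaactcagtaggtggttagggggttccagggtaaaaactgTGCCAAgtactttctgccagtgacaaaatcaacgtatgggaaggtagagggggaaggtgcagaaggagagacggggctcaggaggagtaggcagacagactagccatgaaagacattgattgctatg

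NFI sites were searched because the study concerns Setdb1 together with the NFI protein Nfix. The core was found in the central 500 bp of 43 of the 177 peaks (24.3%, 18.6% to 31.1%), against 26.6% of the rest of the list, which the interval includes. In the central 300 bp it was found in 24 peaks (13.6%, 9.28% to 19.4%), against 17.4% of the rest and 14.1% of 32851 RefSeq promoters of the same length. The full site, TTGGC followed after 5 bases by GCCAA, was found in none of the 177 peaks, which allows a share of up to 2.12% by the Wilson interval, and in 12 of the rest (0.0349%). Of the 3 sequences above, the Cdh13 peak holds 1 core and the others none. A Cdh23 peak outside repeats with a higher score, 16.0, holds 1 core in its central 500 bp. GC content had a median of 48.8% at the members, against 49.2% in the rest, and the median number of CpG dinucleotides was 6 in both.

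A second set of sequences shows the 3 member peaks centred in coding exons, a class of 2.92% of the rest of the list, again on the forward strand with coding bases in capitals. They lie in exon 2 of 14 of Cdh13 (chr8:118505560-118505859, score 6.42), exon 6 of 14 of Cdh15, the M-cadherin of muscle (chr8:122861407-122861706, score 6.10), and exon 15 of 18 of Cdh16, the kidney-specific cadherin (chr8:104616203-104616502, score 9.31). Cdh16 is on the reverse strand, so its coding bases are printed as the complement of the message. The windows hold 112, 129 and 238 coding bases of the 300, and 15, 7 and 8 CpG. None of the 3 windows holds the core.
Cdh13: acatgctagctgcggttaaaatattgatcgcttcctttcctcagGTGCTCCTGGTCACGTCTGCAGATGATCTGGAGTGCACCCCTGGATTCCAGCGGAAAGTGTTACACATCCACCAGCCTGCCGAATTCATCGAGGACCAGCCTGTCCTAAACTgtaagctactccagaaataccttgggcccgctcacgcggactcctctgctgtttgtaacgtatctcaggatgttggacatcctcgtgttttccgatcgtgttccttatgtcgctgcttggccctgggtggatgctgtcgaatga
Cdh15: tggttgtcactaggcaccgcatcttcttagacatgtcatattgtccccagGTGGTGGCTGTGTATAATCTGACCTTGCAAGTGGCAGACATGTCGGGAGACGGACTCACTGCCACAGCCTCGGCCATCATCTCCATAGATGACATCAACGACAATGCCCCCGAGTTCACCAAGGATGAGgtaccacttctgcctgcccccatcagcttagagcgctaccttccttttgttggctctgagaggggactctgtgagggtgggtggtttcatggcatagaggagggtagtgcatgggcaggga
Cdh16: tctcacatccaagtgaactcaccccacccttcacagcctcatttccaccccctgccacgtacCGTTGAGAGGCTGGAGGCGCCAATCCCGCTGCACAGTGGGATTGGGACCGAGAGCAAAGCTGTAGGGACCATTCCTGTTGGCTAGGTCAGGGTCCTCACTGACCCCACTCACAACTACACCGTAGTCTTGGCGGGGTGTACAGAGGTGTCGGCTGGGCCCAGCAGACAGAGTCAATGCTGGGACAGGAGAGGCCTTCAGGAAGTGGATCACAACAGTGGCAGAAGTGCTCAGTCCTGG

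Of 34 RefSeq protein-coding genes that fit the rule, 29 had at least 1 peak (85.3%, 95% Wilson interval 69.9% to 93.6%), against 50.9% of all 21000 protein-coding genes. These genes are long and their starts stand far from others. The median cadherin or protocadherin gene was 115 kb long, against 17.7 kb for all protein-coding genes. The stretch of sequence nearer to its TSS than to any other had a median of 0.266 Mb, against 0.0423 Mb. Among genes of similar length, 67.5% had a peak, a value below the interval of the family share, and among genes with a stretch of similar length 74.2% had one, a value inside it. Counting only peaks centred inside the gene, 19 of the 34 genes had one (55.9%, 39.5% to 71.1%), against 31.3% of all protein-coding genes. Counting only peaks within 10 kb of a TSS, 4 of the 34 genes had one (11.8%, 4.67% to 26.6%), against 22% of all, which the interval includes. These 4 genes were Cdh1, Cdh4, Cdh16 and Pcdh12. Among genes of 50 kb or more the inside-gene shares were close, with no peak in 33.3% of 24 member genes, against 33.7% of all 4876 genes. The differences were thus smaller beside genes of like length or stretch. Cdh24, Pcdh7, Pcdh8, Pcdh10 and Pcdh19 had no peak.

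The number of peaks per gene was uneven. Cdh6, a type II cadherin first known from kidney, had 18 peaks, a number that 57 of all protein-coding genes reached (0.271%). Cdh13 (T-cadherin, which is held in the membrane by a lipid anchor and lacks the usual inner part) had 15. Cdh7, Cdh9 and Cdh26 had 13 each, Pcdh9 had 12, Cdh4 (R-cadherin) and Cdh20 had 11 each, and Cdh11 and Cdh18 had 9 each. These 10 genes held most of the peaks. Cdh23 had 7, Cdh19 had 6, and Cdh5, Pcdh15 and Pcdh20 had 5 each. The remaining 14 genes had 1 to 4 peaks. These counts take no account of the stretch. That of Cdh6 was 1.95 Mb, which gives 9.22 peaks per Mb (5.46 to 14.6, exact Poisson interval). The value over the whole genome was 13.1 per Mb, which the interval includes. Of the 10 genes, Cdh7, Cdh9, Cdh11, Cdh18, Cdh20 and Pcdh9 also lay below 13.1, at 4.17 to 8.49 per Mb. Cdh4 (39.2), Cdh13 (19.4) and Cdh26 lay above it. Cdh2, the most widely used cadherin of neural cells, had 1 peak of score 5.78 on the L1 element Lx6 in intron 1 of 15, 24.4 kb downstream of its TSS.

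**Figure D1:**
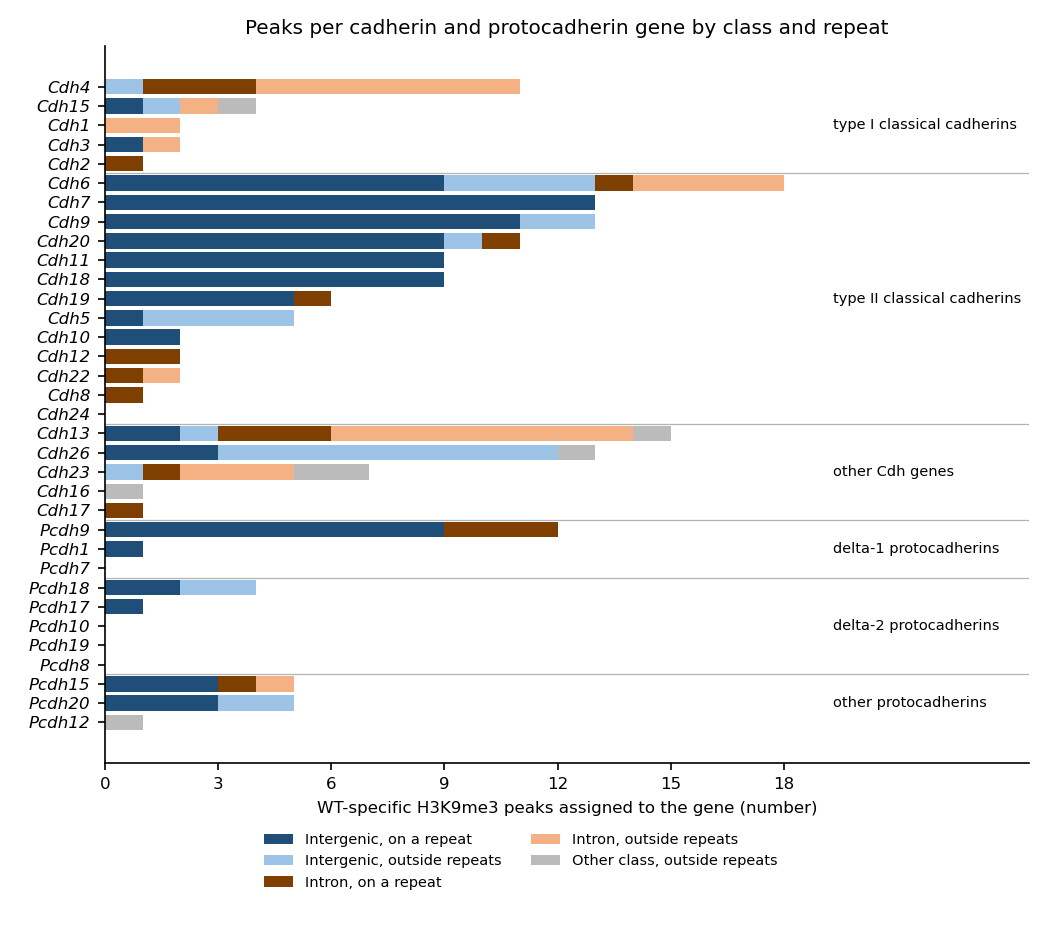
Number of peaks assigned to each of the 34 cadherin and protocadherin genes (rows, grouped by subfamily), with bar segments for intergenic, intron and other class, each on a repeat or outside repeats. Cdh6 has the longest bar with 18 peaks, the bars of Cdh7, Cdh11, Cdh18 and Pcdh9 are made of repeat segments alone, and 5 genes have no bar.

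Most peaks were classed as intergenic and lay far from a start. By the authors' class of the peak centre, 122 of the 177 peaks were intergenic (68.9%, 61.8% to 75.3%), against 59.4% of the rest of the list (58.9% to 59.9%). Introns held 48 peaks (27.1%, 21.1% to 34.1%), against 34.2% of the rest, and each of the 48 lay in an intron of a transcript of the member gene itself. By RefSeq gene bounds fewer lay outside genes, with 104 centres in no gene, 56 inside the member gene and 17 inside another gene only. Among those classed as intergenic, the Pcdh15 peaks with scores of 5.46, 18.6 and 12.8 and a Cdh13 peak with a score of 5.78 lay inside those genes by these bounds. The other 7 peaks were 3 in coding exons, 2 in 3' UTRs, 1 at a transcript end and 1 in a promoter. The median distance to the TSS was 279 kb (207 to 387 kb), against 37.1 kb for the rest of the list (36.4 to 37.8 kb). A peak cannot lie farther from its TSS than the stretch reaches. The median stretch was 0.266 Mb in the family, against 0.0423 Mb for all protein-coding genes, so distances are not compared at like stretch. Only 7 peaks lay within 10 kb of the TSS (3.95%, 1.93% to 7.94%), against 19.5% of the rest. Beyond 500 kb there were 59 peaks (33.3%, 26.8% to 40.6%), against 4.30% of the rest, and 28 of them lay beyond 1 Mb (15.8%), against 1.12%. The farthest was 1859 kb downstream of the start of Pcdh9.

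**Figure D2:**
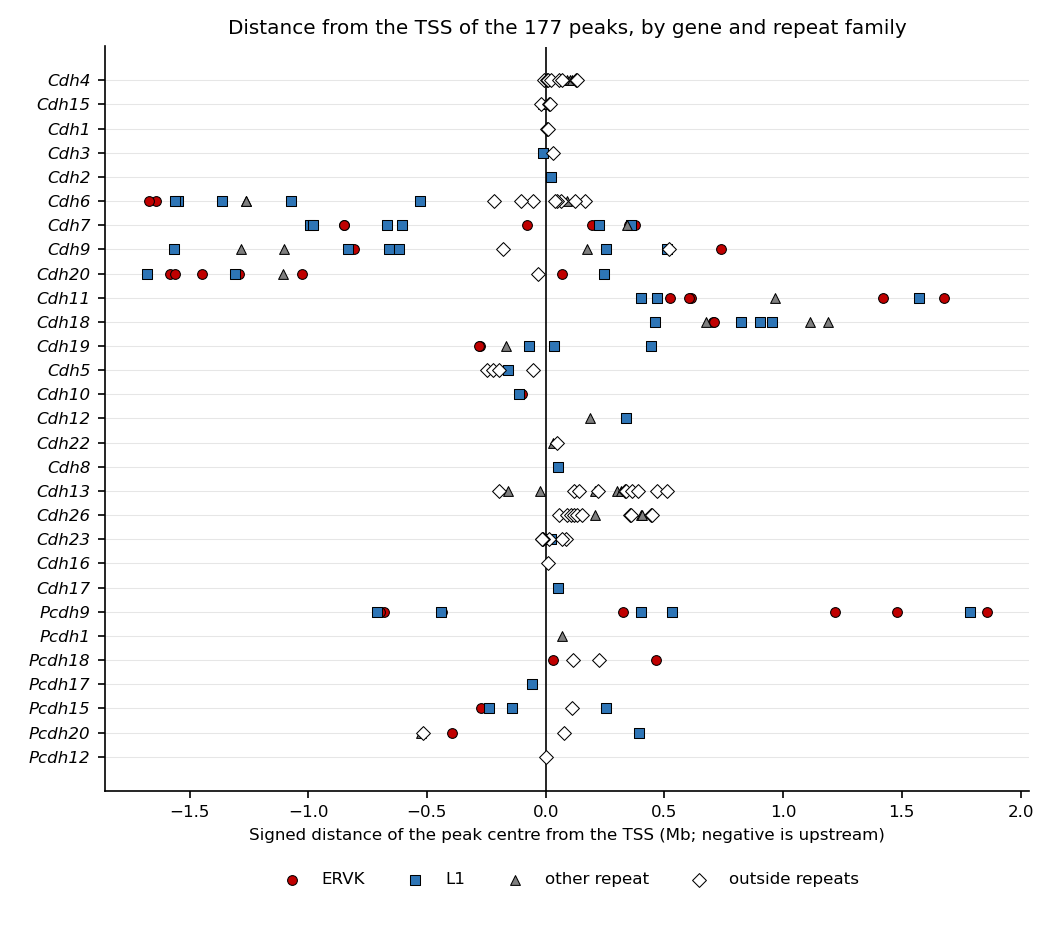
Signed distance of each of the 177 peak centres from the TSS of its gene in Mb (x axis, negative is upstream), one row per gene, with symbols for ERVK elements, L1 elements, other repeats and no repeat. No open diamond (outside repeats) lies beyond 1 Mb, so the peaks beyond 1 Mb at Cdh6, Cdh9, Cdh11, Cdh18, Cdh20 and Pcdh9 are all on repeats.

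Repeats lay under 114 of the 177 peak centres (64.4%, 57.1% to 71.1%), against 54.0% of the rest of the list (53.5% to 54.5%). L1, the active family of long interspersed elements, was named at 48 peaks (27.1%, 21.1% to 34.1%), against 16.2% of the rest. ERVK, the family of endogenous retroviruses that includes the intracisternal A particle (IAP) elements, was named at 37 peaks (20.9%, 15.6% to 27.5%), against 13.0%. The older ERVL-MaLR elements accounted for 12 peaks (6.78%, 3.92% to 11.5%), against 8.97%, and short interspersed elements for 8 (4.52%, 2.31% to 8.66%), against 8.06%. The L1 and ERVK shares were above those of the rest, with intervals that did not overlap, while the intervals for ERVL-MaLR and short interspersed elements included the share of the rest.

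The repeat share moved with distance in both sets. Beyond 500 kb from the TSS, 56 of 59 member peaks lay on a repeat (94.9%, 86.1% to 98.3%), against 90.8% of the rest at that distance. Between 100 and 500 kb it was 41 of 71 (57.7%, 46.2% to 68.5%), against 65.4%. Within 100 kb it was 17 of 47 (36.2%, 24.0% to 50.5%), against 48.5%. Within each of these 3 ranges the interval of the member share included the share of the rest. By class it did not in intergenic sequence, where 94 of 122 member peaks lay on a repeat (77.0%, 68.8% to 83.6%), against 65.2% of the rest, and it did in introns, with 20 of 48 (41.7%, 28.8% to 55.7%), against 44.5%. The intergenic members lay farther from the TSS, at a median of 445 kb, against 54.0 kb for intergenic peaks of the rest. The shares of this class are thus not at like distance. ERVK followed the same course, with 3 of the 47 nearest, 11 of the 71 intermediate and 23 of the 59 farthest peaks (39.0%), against 33.8% of the farthest peaks of the rest. L1 was named at 23 of the 59 farthest peaks (39.0%), against 38.9%.

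**Figure D3:**
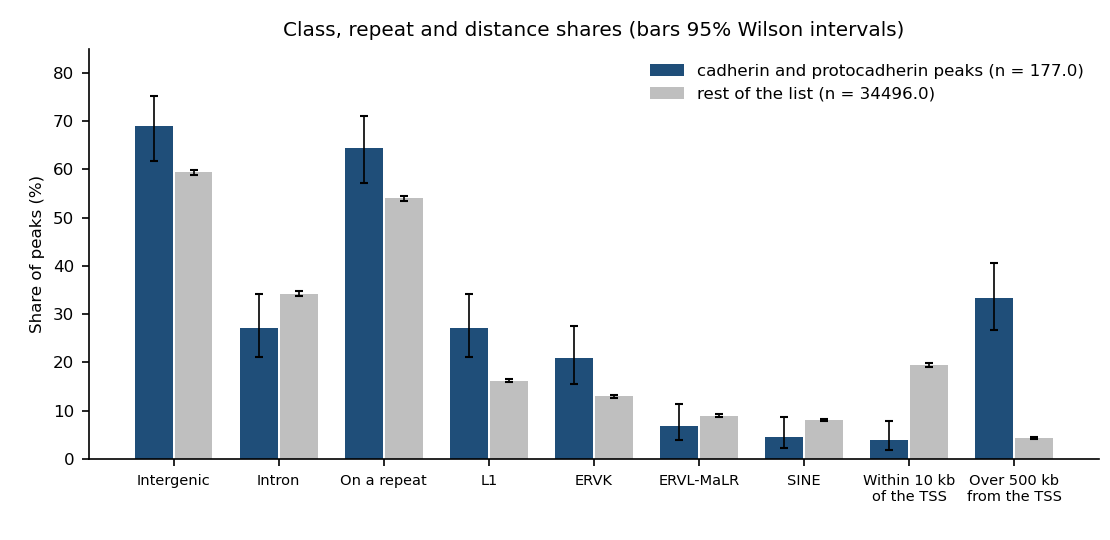
Share of peaks (y axis, percent) by class, repeat family and distance for the 177 cadherin and protocadherin peaks, left, and the 34496 other peaks of the list, right, with 95% Wilson intervals as error bars. Over 500 kb from the TSS the shares are 33.3% against 4.30%, and the repeat share is 64.4% against 54.0%.

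By name, the 2 commonest repeats were IAPEz-int, the internal part of an IAP retrovirus, and L1Md_A, a young L1 subfamily, with 9 peaks each at 7 genes. L1Md_F2 followed with 6 peaks at 6 genes and L1Md_F with 5 at 4 genes. The 9 IAPEz-int peaks had scores of 5.46 to 13.5 with a median of 6.74, against a median of 9.31 over all 696 IAPEz-int peaks of the list. The L1Md_A peaks had scores of 5.78 to 18.6 with a median of 6.42, equal to the 6.42 of all 370 L1Md_A peaks. Young elements have near-identical copies elsewhere, and the authors kept 1 best location for a read that matched several places. The central 150 bp occurred more than once in the genome for 21 of the 177 peaks (11.9%, 7.89% to 17.5%), against 10.2% of the rest. All 21 were among the 114 peaks on repeats, 6 of them among the 9 on L1Md_A and 5 among the 9 on IAPEz-int. At the extreme, the L1Md_A sequence under a peak 1363 kb upstream of Cdh6 had 4155 exact copies, so which copy carried the mark cannot be told apart. None of the 63 peaks outside repeats had a second exact copy.

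The authors' peak score, for which no scale is stated, had a median of 6.74 at the members (6.42 to 7.06), against 7.06 in the rest of the list. Scores under 10 lie on steps of 0.321, within a tolerance of 0.005, so the medians were 1 step apart, 21 steps against 22. A score of 10 or more was reached by 16 peaks (9.04%, 5.64% to 14.2%), against 13.8% of the rest, which the interval includes. Most peaks had the smallest width in the list, 500 bp, with 142 of 177 (80.2%) at the members, against 77.1% of the rest.

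The member with the highest score was in Cdh23, which forms the tip links of inner ear hair cells together with Pcdh15. It spanned chr10:60628769-60630523 (mm10) in intron 4 of 68, 66.8 kb downstream of the TSS, and was also the widest member at 1754 bp. Its score of 43.6 was reached by 0.193% of the list, and no repeat was named at its centre. The next was a 1112 bp peak with a score of 19.6 in intergenic sequence 168 kb downstream of the start of Cdh6 and past the end of the gene, also outside repeats. A peak with a score of 14.4 and a width of 1177 bp in intron 2 of Cdh4 was of the same kind. Repeats were named at 6 of the 10 highest, and the highest of these were L1Md_A at Pcdh15 (score 18.6), MMERVK10C-int at Pcdh18 (17.7) and RLTR10-int at Pcdh9 (17.0). At Cdh7, peaks on IAPA_MM-int (15.4) and IAPEz-int (13.5) lay 1.54 kb apart, 849 and 848 kb upstream of the TSS.

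Type I cadherins had peaks at each of their 5 genes, 20 in all, and these lay in and near the genes. Introns held 15 of them (75.0%), the median distance was 20.8 kb (12.5 to 68.7 kb), and 6 lay on repeats (30.0%, 14.5% to 51.9%), none on ERVK. Cdh4 had 11, of which 10 were in intron 2 of the annotated transcript and 8 outside repeats. Its peaks ran from 5.57 kb upstream to 133 kb downstream of the start, 3 of them within 10 kb, with scores of 5.46 to 14.4. Cdh1 had 2 peaks in intron 2, at 3.89 and 9.53 kb, with scores of 5.46 and 7.38. Cdh15 had 4 peaks within 21.4 kb of its start, and Cdh3 (P-cadherin) had 1 on an L1Md_F element 12.5 kb upstream and 1 in intron 8.

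Type II cadherins showed the opposite layout, but their stretches are longer, with a median of 1.02 Mb, against 0.133 Mb for type I. The stretch limits how far from the TSS a peak can lie, and the repeat share moved with distance. The 2 layouts are thus not compared at like stretch. The 91 type II peaks at 12 of 13 genes were intergenic in 79 cases (86.8%). They were on repeats in 75 (82.4%, 73.3% to 88.9%), with ERVK at 26 (28.6%) and L1 at 34 (37.4%). The median distance was 522 kb (342 to 707 kb). Every peak of Cdh7 (13), Cdh11 (9), Cdh18 (9) and Cdh19 (6) lay on a repeat, and the closest of Cdh7 was 78.9 kb upstream of its start. Cdh20, which is expressed in restricted regions of the developing brain, had 10 of 11 on repeats, 6 of them ERVK, and 8 of the 11 were 1028 to 1679 kb upstream of its start. Its closest peak, 32.6 kb upstream, was the 1 outside repeats. Cdh11, the cadherin of mesenchyme and bone, had its 9 peaks 399 to 1679 kb downstream, and Cdh18 had its 9 peaks 459 to 1188 kb downstream, with scores of 5.46 to 8.99. At Cdh9, 11 of 13 lay on repeats and the closest was 172 kb away.

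Cdh6 held both layouts. Its 9 peaks beyond 500 kb, all upstream by 530 to 1670 kb, lay on repeats, among them 3 on L1Md_A and 2 on MERVL-int. Of the 9 peaks within 218 kb of the start, 8 lay outside repeats, 5 were in introns 1, 2 and 6, the closest at 40.3 kb, and the highest had the score of 19.6 named above. Cdh5 (VE-cadherin of endothelium) departed from its subfamily, with 4 of 5 peaks outside repeats and all 5 between 55.2 and 247 kb upstream. Cdh8 had 1 peak, and Cdh10, Cdh12 and Cdh22 had 2 each. Those of Cdh8, Cdh12 and Cdh22 were all in introns. They lay 53.4 kb from the start at Cdh8, and 29.4 and 46.5 kb from it at Cdh22.

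Among the genes that carry a Cdh symbol without being classical cadherins, 37 peaks fell at 5 genes, and 10 lay on repeats (27.0%, 15.4% to 43.0%), none on ERVK. Cdh13 had 11 peaks in introns and 10 of its 15 outside repeats. Its peaks ran from 195 kb upstream to 510 kb downstream, the closest at 23.7 kb upstream, with scores of 5.46 to 9.63. Cdh26 had 13 peaks, all 56.7 to 447 kb downstream, of which 10 lay outside repeats and 1 in its own 3' UTR. In the RefSeq annotation used here, 10 of the 13 were closer to the uncharacterised loci Gm35695 and Gm35888, so the tie to Cdh26 depends on the annotation. For Cdh23, 4 of 7 were closer to the uncharacterised locus Gm51803. Of its 7 peaks, 6 lay outside repeats, and a peak with a score of 16.0 that lay 15.4 kb upstream was at the transcript end of a neighbouring gene. Cdh16 and Cdh17 had 1 peak each.

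Protocadherins had fewer peaks. Among the delta-1 genes, Pcdh9 had 12, all on repeats, 7 of them ERVK and 5 L1, from 709 kb upstream to 1859 kb downstream, none closer than 325 kb, with scores of 6.10 to 17.0, and Pcdh1 had 1. Among the delta-2 genes, Pcdh18 had 4 and Pcdh17 had 1, and the other 3 had none. The ERVK peak with a score of 17.7 lay 29.3 kb downstream of the start of Pcdh18. Pcdh15 had 5, of which 4 were on repeats. Pcdh20 had 5, of which 3 were on repeats. Pcdh12, a protocadherin of endothelium, had the only promoter peak of the family, 0.194 kb upstream of its TSS with a score of 6.42, and its centre also lay inside the gene Rnf14.

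The nearest-TSS rule and the gene body gave different pictures. In all, 111 peaks were centred inside the 34 genes, whatever gene the authors assigned them to. Cdh13 held 39, of which 13 were assigned to it and 26 to Hsbp1, the gene after its end. Cdh4 held 16, 6 of them assigned elsewhere, Cdh23 held 12, 8 of them assigned elsewhere, and Pcdh15 held 11, 6 of them assigned elsewhere. Cdh18 held 3 although none of its 9 assigned peaks lay inside it. Of the 39 in Cdh13, 25 lay outside repeats and scores reached 16.0. Density differed between large genes. Cdh13 (1185 kb) had 32.9 peaks per Mb of gene body (23.4 to 45.0, exact Poisson interval), Cdh4 had 35.0 (20.0 to 56.9) and Cdh23 had 30.5 (15.7 to 53.2). Cdh12 (1150 kb) had 3.48 (0.948 to 8.91), Cdh18 (929 kb) had 3.23 (0.666 to 9.44), Pcdh9 had 3.41 (0.704 to 9.97) and Pcdh15 had 7.08 (3.53 to 12.7). The intervals of the first 3 genes did not overlap those of the other 4. Cdh8, which is as long as Cdh23, had 7.63 (1.57 to 22.3), an interval that overlaps that of Cdh23. Pcdh7, at 417 kb, had none.

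GC content of the gene body ran alongside this. Cdh13, Cdh4 and Cdh23 had 45.8%, 49.5% and 50.8% GC, against 36.4% in Cdh12, 36.5% in Cdh18, 35.7% in Pcdh9 and 36.7% in Pcdh7. Over the 24 member genes of 50 kb or more, peaks per Mb and GC content were correlated (Spearman's rho 0.73, Pearson's r 0.84), and over all 4876 protein-coding genes of that length rho was 0.52 and r 0.51. These are correlations across genes, which share the libraries and are not independent replicates. In the list as a whole, genes with under 38% GC had 3.96 peaks per Mb and genes with over 48% had 29.2, and the member genes in those bins had 3.11 and 31.8. The part of base composition in these values was not tested.

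**Figure D4:**
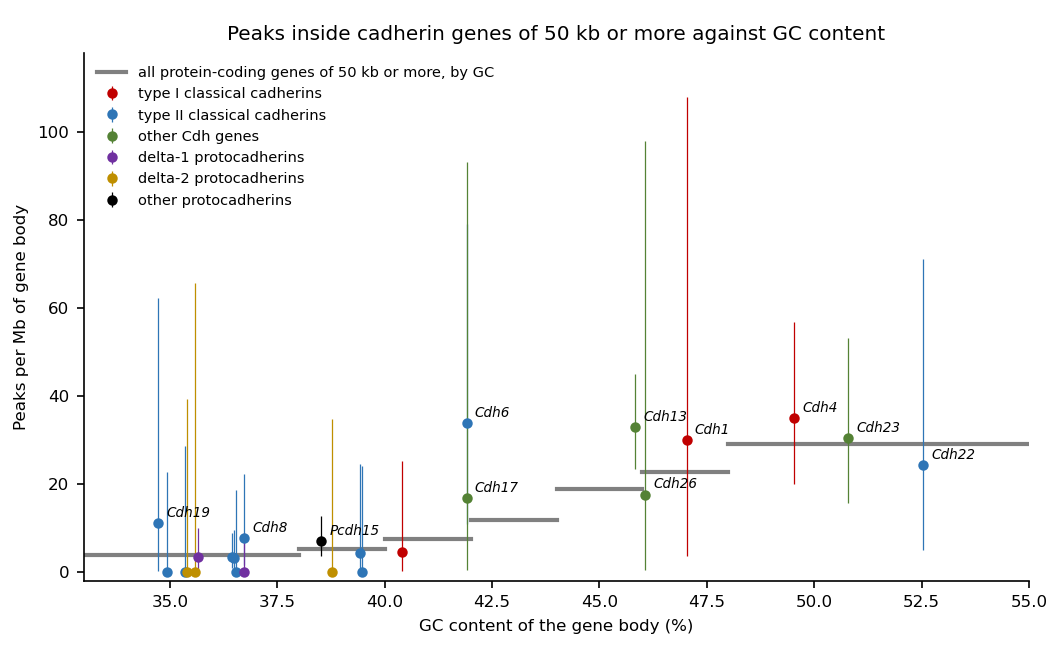
Peaks per Mb of gene body (y axis, exact Poisson 95% intervals) against the GC content of the gene body (x axis, percent) for the 24 cadherin and protocadherin genes of 50 kb or more, with grey bars for all 4876 protein-coding genes of that length in bins of GC. Genes from Cdh13 (45.8% GC) upward lie at 17.6 to 35.0 peaks per Mb, and those under 38% GC lie at 0 to 11.2. Cdh6 lies at 33.9 with 41.9% GC.

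Set against the length of sequence, the family had few peaks. Within the RefSeq annotation, 161 peaks lay in the 23.1 Mb that are nearest to a TSS of the 34 genes, or 6.96 per Mb. At the density of the rest of the same chromosomes there would be 299, which gives a ratio of 0.539 (0.459 to 0.629). For peaks outside repeats the ratio was 0.369 (0.276 to 0.483), and for peaks on any repeat 0.697 (0.572 to 0.842). For ERVK it was 0.971 (0.683 to 1.34) and for L1 0.994 (0.725 to 1.33), so these were as frequent per Mb as elsewhere within their intervals. ERVL-MaLR peaks had a ratio of 0.400 (0.200 to 0.716) and short interspersed elements 0.263 (0.0964 to 0.572). By subfamily, type II cadherins had 0.477 (0.384 to 0.587) and delta-1 protocadherins 0.312 (0.166 to 0.534). Delta-2 protocadherins had 0.354 (0.0965 to 0.907) and the other protocadherins 0.397 (0.198 to 0.710). Type I cadherins had 1.46 (0.890 to 2.25) and the other Cdh genes 1.52 (0.961 to 2.28), intervals that include 1.

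**Figure D5:**
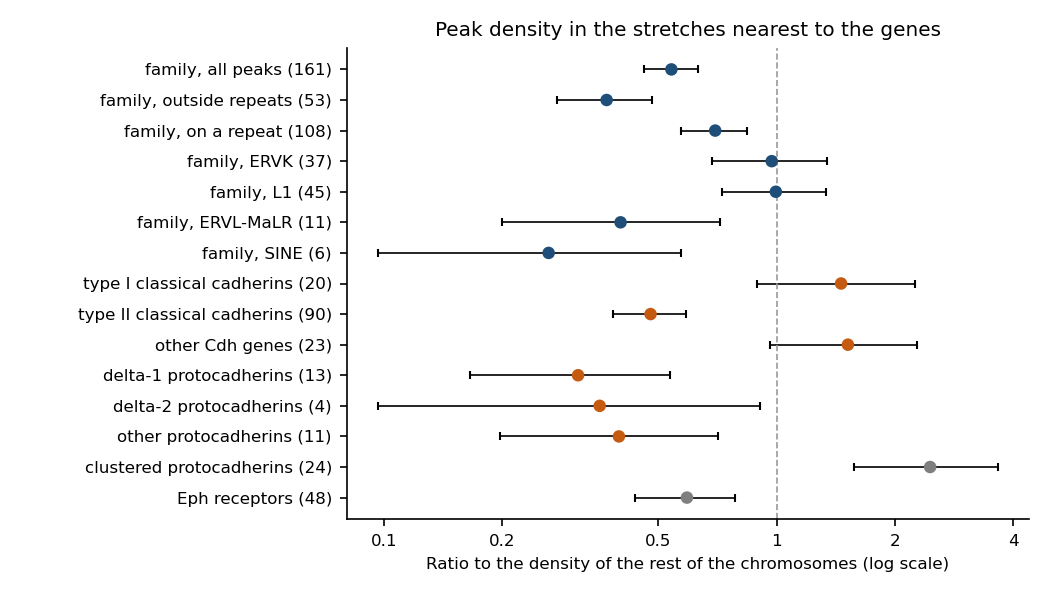
Ratio of the number of peaks in the stretches nearest to the genes to the number at the density of the rest of the same chromosomes (x axis, log scale, exact Poisson 95% intervals), by kind of peak for the whole family, by subfamily and for 2 other gene families, with peak numbers in brackets. Family ERVK and L1 peaks sit at 0.971 and 0.994, peaks outside repeats at 0.369, and clustered protocadherins at 2.46.

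Genes with long surroundings gave a closer comparison, though not a matched one. Among the longest 10% of stretches there were 18 family genes, with a median stretch of 0.982 Mb, against 0.345 Mb for 2082 other genes. Of the 18, 17 had a peak (94.4%), against 89.6% of the others. Density there was 6.39 peaks per Mb, against 9.56 for the others. Repeats were named at 73.0% of the family peaks (65.2% to 79.7%), against 64.9% of the peaks of the other genes, and ERVK at 26.2% (19.7% to 34.1%), against 18.5%. Clustered protocadherins, set beside the family, had 24 peaks at 19 of 57 genes (33.3%). The share was 50.9% of all protein-coding genes and 19.2% of those with a stretch of similar length. None of the 24 was intergenic, the median distance was 2.61 kb (1.99 to 6.15 kb) and the density ratio 2.46 (1.57 to 3.65). The median stretch of these genes was only 0.00747 Mb, so their distances and those of the family are not like for like. Peaks centred inside the gene were found at 36 of the 57 (63.2%), against 55.9% of the family, where a peak counts for each gene that spans it. Eph receptors, another family of contact proteins, had 48 peaks at 10 of 14 genes (71.4%, 45.4% to 88.3%), against 66.9% of genes with a stretch of similar length. Of these peaks, 70.8% were intergenic (56.8% to 81.8%) and 64.6% on repeats (50.4% to 76.6%). The median distance was 201 kb and the ratio 0.591 (0.436 to 0.783). The intervals of the family and of the Eph receptors overlapped for the gene, intergenic and repeat shares.

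Member peaks were mostly scattered. Centres within 10 kb of the next formed 23 runs that held 47 peaks, and the largest run had 3 peaks, upstream of Cdh23. The catenins and their relatives, which link cadherins to the skeleton, had a peak at 9 of 12 genes (75.0%, 46.8% to 91.1%), against 50.9% of all protein-coding genes. The share was 68.0% among genes of similar length and 63.9% among genes with a stretch of similar length, both inside the interval. Ctnna3, an alpha-catenin, had 9 peaks, Ctnnd2, a delta-catenin of neurons, had 7, and Ctnna1 had 2. Ctnnb1 (beta-catenin), Arvcf and Pkp4, named after their values were seen, had no peak assigned to them, though 1 peak assigned elsewhere was centred inside Pkp4. Of 27 genes of the cadherin superfamily outside the rule, 15 had a peak (55.6%, 37.3% to 72.4%). For genes of similar length the share was 61.5%, and for genes with a similar stretch 59.7%. The giant cadherin Fat1 had 11 peaks, and its relatives Fat3 and Fat4 and the desmosomal cadherin Dsc3 had 10 each.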

How the data were processed

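H3K9me3 ChIP-seq libraries were made from sorted BG. Bowtie2 (2.2.8) and HOMER (4.10.1) are the versions in the submitters' processing notes. The authors used them to align reads to mm10, with 1 best location for a read that matched several and duplicate tags at a position dropped, and to call peaks over a local background. Peaks absent from MT cells were kept. These steps could affect broad domains and repeats, which was not tested. The deposited list gives the peak score, the width and the distance to the TSS in bp. The sources used here do not state how libraries were merged.

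Python 3.11.15, pandas 2.3.3, SciPy 1.17.1 and pysam 0.24.0 were used. Stretches, gene bodies and sequences came from RefSeq GRCm38.p6. The recomputed nearest gene was the authors' gene for 161 of 177 member peaks, and density uses the recomputed gene. Shares have Wilson intervals, medians order-statistic intervals and counts exact Poisson intervals. No test was run, and the code was tested on simulated data. Members, lists and subfamilies were chosen with earlier results of these data known. Genes described are mainly the 10 with most peaks, those with a peak within 10 kb of a TSS or in an exon or promoter, and Cdh2 and Cdh20. Peaks described are the 10 with the highest score, the widest 3 and the closest of each of those 10 genes. Of the other lists, the genes with most peaks are named. Cdh3, Cdh5, the gene body values and 4 of the 6 printed sequences were chosen after their values were seen. Class, distance or repeat values are also given for Cdh8, Cdh12, Cdh19, Cdh22, Pcdh15 and Pcdh20, which the rule for genes does not name. Alternatives are given in the closing section.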

Additional observations from a re-analysis of the deposited data

How the results depend on the processing

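Of 36 alternatives, 7 of them chosen after seeing the data, 23 stayed within the interval of the value given, or within 1.5 times the count. The 177 member peaks became 111 when only peaks centred inside a member gene counted, 112 with at least 1 bp inside, 87 at or above the median score, 63 outside repeats and 47 within 100 kb of the TSS. Outside repeats the intergenic share was 44.4%, the median distance 106 kb and the density 2.29 per Mb. Density was 3.46 per Mb at or above the median score, against 6.75 per Mb over the whole genome for such peaks, and 11.7 per Mb of gene body, against 13.3 over all protein-coding genes. The share of family genes with a peak was 55.9% by gene body and 11.8% within 10 kb of the TSS. A limit of 50 kb gave 36 runs. Without the gene with most peaks (Cdh6), the repeat share was 65.4% and density 6.75 per Mb. With peaks of 1 genomic copy only, the repeat share was 59.6%. Reassigning peaks to the recomputed nearest TSS gave 161 peaks at 28 genes, a repeat share of 67.1% and a median distance of 317 kb. No paired analysis was possible because the list holds no value per library. Depth per library is unknown, and the list gives no peaks of MT cells, so what a peak lost there cannot be sized.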

Other observations

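The share of member peaks with the NFI core, TTGGCA, was also read by distance. The core was present in the central 500 bp of 15.3% of the 59 member peaks beyond 500 kb (8.24% to 26.5%), against 30.4% of the 1485 other peaks there. Between 100 and 500 kb it was in 32.4% of the 71 member peaks (22.7% to 43.9%), against 27.0%. Within 100 kb it was in 23.4% of the 47 member peaks (13.6% to 37.2%), against 26.3%. The intervals of these last 2 ranges include the share of the rest. On L1 elements the core was found at 12.5% of the 48 member peaks (5.86% to 24.7%), against 21.6% of the rest, which the interval includes. These bins were looked at after the values were seen and no test was run.

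The number of CpG in the central 500 bp varied among the 6 repeat peaks with the highest scores. It was 21 at the Pcdh15 peak on L1Md_A and 31 at the Cdh7 peak on IAPA_MM-int. It was 9 and 5 at the Pcdh18 peaks on MMERVK10C-int and IAPEY3-int, 10 at the Pcdh9 peak on RLTR10-int and 11 at the Cdh7 peak on IAPEz-int. The median was 9 over the 37 ERVK members and 4 over the 48 L1 members, against 8 and 4 for these families in the rest of the list.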
